A study of Mus musculus with 13 samples.

Results

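The genes described here fold, modify and export secreted protein in the endoplasmic reticulum (ER), and collagen is the main cargo that a fibroblast passes through them. They are 34 genes, chosen by symbol from the 32285 genes of the count matrices, and every symbol was found. They comprise 9 chaperones and co-chaperones, 4 protein disulfide isomerases, 5 genes for the collagen chaperone and the FK506-binding prolyl isomerases, 5 transcription factors, 4 translocon genes, 4 genes of the COPII coat and cargo export, 2 receptors for the KDEL retrieval signal and 1 gene of ER-associated degradation. A new procollagen chain enters the ER through the Sec61 channel, is hydroxylated on proline and lysine, assembles into a triple helix with the help of chaperones, and leaves in vesicles coated by the COPII complex. When unfolded protein accumulates, the unfolded protein response raises chaperone genes through the factors ATF6 and XBP1, while the kinase PERK slows translation and favors ATF4, which can in turn induce Ddit3. The related factors Creb3l1 and Creb3l2 raise secretory pathway genes in cells that make much matrix.

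The study profiled mouse mammary fibroblasts by droplet single-cell RNA sequencing from the 3′ end, in 13 libraries that form 9 groups. The stage groups were wildtype C57BL/6 females at puberty (4 weeks), as adults (9 weeks), at day 14.5 of pregnancy, day 10 of lactation and day 4 of involution, with 1 library each from 2 pooled animals. The hormone groups were wildtype C57BL/6 females that carried pellets of medroxyprogesterone acetate and estradiol (MPA+E) or placebo for 7 days and were taken at 9 weeks, with 2 libraries per group. Stromal cells of both kinds of sample were taken by sorting for the absence of CD24 and of the lineage markers. The hyperplasia and tumor groups came from raGFP-Wnt1 females (Pdgfra-GFP KI/+ MMTV-Wnt1 T/+) on a mixed C57BL/6 and FVB background, with 2 libraries each, sorted as GFP+ cells. In this model the MMTV promoter drives Wnt1 in the mammary epithelium and GFP reports the Pdgfra locus, so fibroblasts with little Pdgfra would be missed by the sort. Hyperplasia 1 and tumor 1 were taken from 1 mouse, and hyperplasia 2 and tumor 2 from another, aged 45 weeks for mouse 1 and 17 weeks for mouse 2.

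Fibroblast barcodes had 500 to 7500 genes, at most 10% mitochondrial UMIs, at least 50 UMIs of Dcn, Lum and Col1a2 together per 10000 UMIs, and no UMI of 6 markers of other cells. The gate left 4236 to 11951 barcodes per library, with a median of 3990 UMIs per barcode in pregnancy and up to 20256 in tumor 2. Levels are in CPM, UMI counts summed over the fibroblasts of a library and scaled to the same total in every library. Single genes are compared with themselves only, since counts from the 3′ end do not rank genes. Sums over a list are led by its genes with the highest CPM and are likewise compared between libraries. Between 5 and 51 barcodes were shared by any 2 libraries, at most 0.5395% of the smaller one. The 8 collagen cargo genes summed to between 15648 and 60618 CPM over the libraries. Plasma cell genes, 4 genes of another secretory cell type, summed to at most 1.22 CPM in any library. The defining markers Epcam, Pecam1, Rgs5, Sox10, Ptprc and Myog were at 0 by the gate.

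The promoters of several of these genes hold the short motifs through which the unfolded protein response is known to act. In both mice, Pdia6, Calr, Canx, Hsp90b1, Dnajb11, Kdelr3, Sec24d and Sec23a, which carry a motif, were higher in tumor than in hyperplasia. Hspa5 and Herpud1, which also carry one, were lower in the tumor of both mice. Of all 34 genes 26 were higher in the tumor of both mice and 6 were lower, beside 45.4% and 38% of 9649 genes. These are directions only, with the tests given below, and whether a motif goes with either direction was not tested. RefSeq promoters on GRCm38.p6, from 250 bases before to 50 bases after the RefSeq start of the gene, were matched for 27 of the 34 genes. Both strands were searched for the ER stress element ERSE (CCAAT, then 9 bases of any kind, then CCACG), for ERSE-II (ATTGG, 1 base of any kind, CCACG), for UPRE (TGACGTGG), and for an ATF4 composite element (TTGCATCA or its reverse complement TGATGCAA, which are the same site read on either strand). ERSE was present in 5 of the 29 promoters of the 27 genes, each of another gene, and in 0.119% of all 32851 promoters. The motifs were picked as known elements of a response that raises ER chaperone genes. Their excess over all promoters is therefore no test. ERSE-II was present in 2 genes (Herpud1 and Dnajb11, 0.0365% of all promoters), UPRE in 3 (Kdelr3, Sec24d and Sec23a, 0.676%) and the ATF4 element in 1 (Herpud1, 0.895%). The lines give each window along the strand of its gene, with the motif in capitals; motifs that begin after the RefSeq start, in Dnajb11 and Sec23a, are not printed.
Hspa5, ERSE, chr2:34772015-34772053, plus strand: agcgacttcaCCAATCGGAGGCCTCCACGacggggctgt
Pdia6, ERSE, chr12:17266481-17266519, plus strand: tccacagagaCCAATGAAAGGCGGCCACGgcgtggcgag
Calr, ERSE read on the opposite strand, chr8:84847065-84847103, minus strand: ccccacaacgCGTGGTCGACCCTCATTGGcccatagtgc
Canx, ERSE, chr11:50325790-50325828, minus strand: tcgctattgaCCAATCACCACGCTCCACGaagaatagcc
Hsp90b1, ERSE, first copy, chr10:86705628-86705666, minus strand: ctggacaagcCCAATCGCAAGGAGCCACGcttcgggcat
Hsp90b1, ERSE read on the opposite strand, copy nearer the start, chr10:86705523-86705561, minus strand: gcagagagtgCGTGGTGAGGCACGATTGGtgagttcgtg
Kdelr3, UPRE read on the opposite strand, chr15:79516368-79516395, plus strand: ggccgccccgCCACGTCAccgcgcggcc
Sec24d, UPRE, chr3:123267460-123267487, plus strand: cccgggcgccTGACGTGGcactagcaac
Herpud1, ATF4 element and ERSE-II, chr8:94386307-94386397, plus strand: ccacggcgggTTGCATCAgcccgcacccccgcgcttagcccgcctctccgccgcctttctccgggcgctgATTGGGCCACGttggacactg
In Hspa5 the motif ended 47 bases before the RefSeq start, and in the other ERSE windows it ended between 80 and 194 bases before it. The gene starts in GENCODE, from which the gene positions given here are taken, lie farther upstream for Hspa5 and Sec24d, so that their windows fall after those starts. A match describes the letters in the window and does not show that a factor binds there.

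Summed over the 34 genes, the level was lowest in hyperplasia, at 7963 and 8653 CPM, and highest in tumor 2, at 14030.3 CPM. Tumor 1 was at 9123 CPM. The 5 stage libraries lay between 9432 CPM in involution and 11816 CPM in lactation. The placebo libraries were at 10630.3 and 10441 CPM, and the MPA+E libraries at 11366 and 9833 CPM lay on either side of them. A map of the 34 genes over the 13 libraries shows where single genes departed from their own mean.

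**Figure D1:**
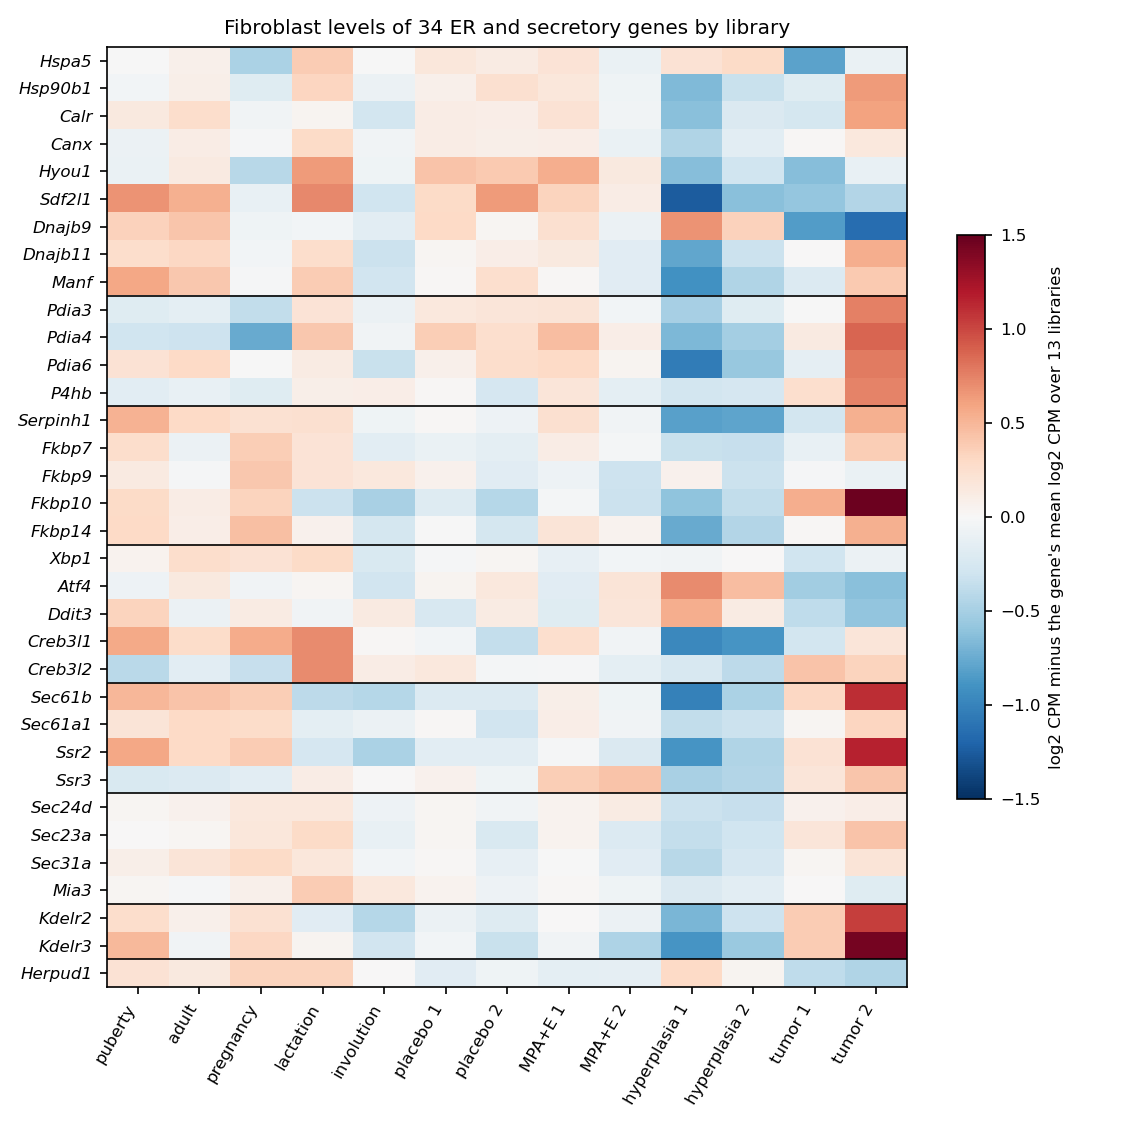
Level of each of the 34 genes (rows, grouped by role) in each library (columns), as log2 CPM minus the mean log2 CPM of the gene over the 13 libraries, in color from -1.5 to 1.5. Most genes are blue in the 2 hyperplasia libraries and red in tumor 2, whereas Dnajb9, Atf4, Ddit3 and Herpud1 run the other way.

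To see how the secretory machinery changes with oncogenesis, hyperplasia was compared with normal glands and tumor with hyperplasia, by limma-voom in 1 fit over 6 libraries. The puberty and adult libraries were joined as normal, which was also the grouping of the study. Folds are on the log2 scale with their SE, n = 2 libraries per group, and a call is an adjusted p under 0.05 over all 16302 genes tested, among which all 34 genes were included. In hyperplasia 8 of the 34 genes fell and 0 rose, beside 6.29% of all genes that fell and 7.7% that rose. In tumor against hyperplasia 16 rose and 4 fell, beside 15.4% and 13.9% of all genes. The median log2 fold of the 34 genes was -0.49 in the first comparison and 0.67 in the second, and that of all genes was -0.0054 and -0.013. Both comparisons used the same hyperplasia libraries, so a low value there enters each of them. With the mouse as a block in the same 6 libraries, an alternative chosen after the data were seen, 22 of the 34 genes rose and 5 fell in tumor, beside 20.1% and 17.6% of all genes; no call was lost and 7 were gained, which are named with their genes. In the 4 raGFP-Wnt1 libraries alone 15 rose and 4 fell with the block, beside 16.6% and 13.6% of all genes, and 9 rose and 2 fell without it, beside 10.5% and 9.39%.

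**Figure D2:**
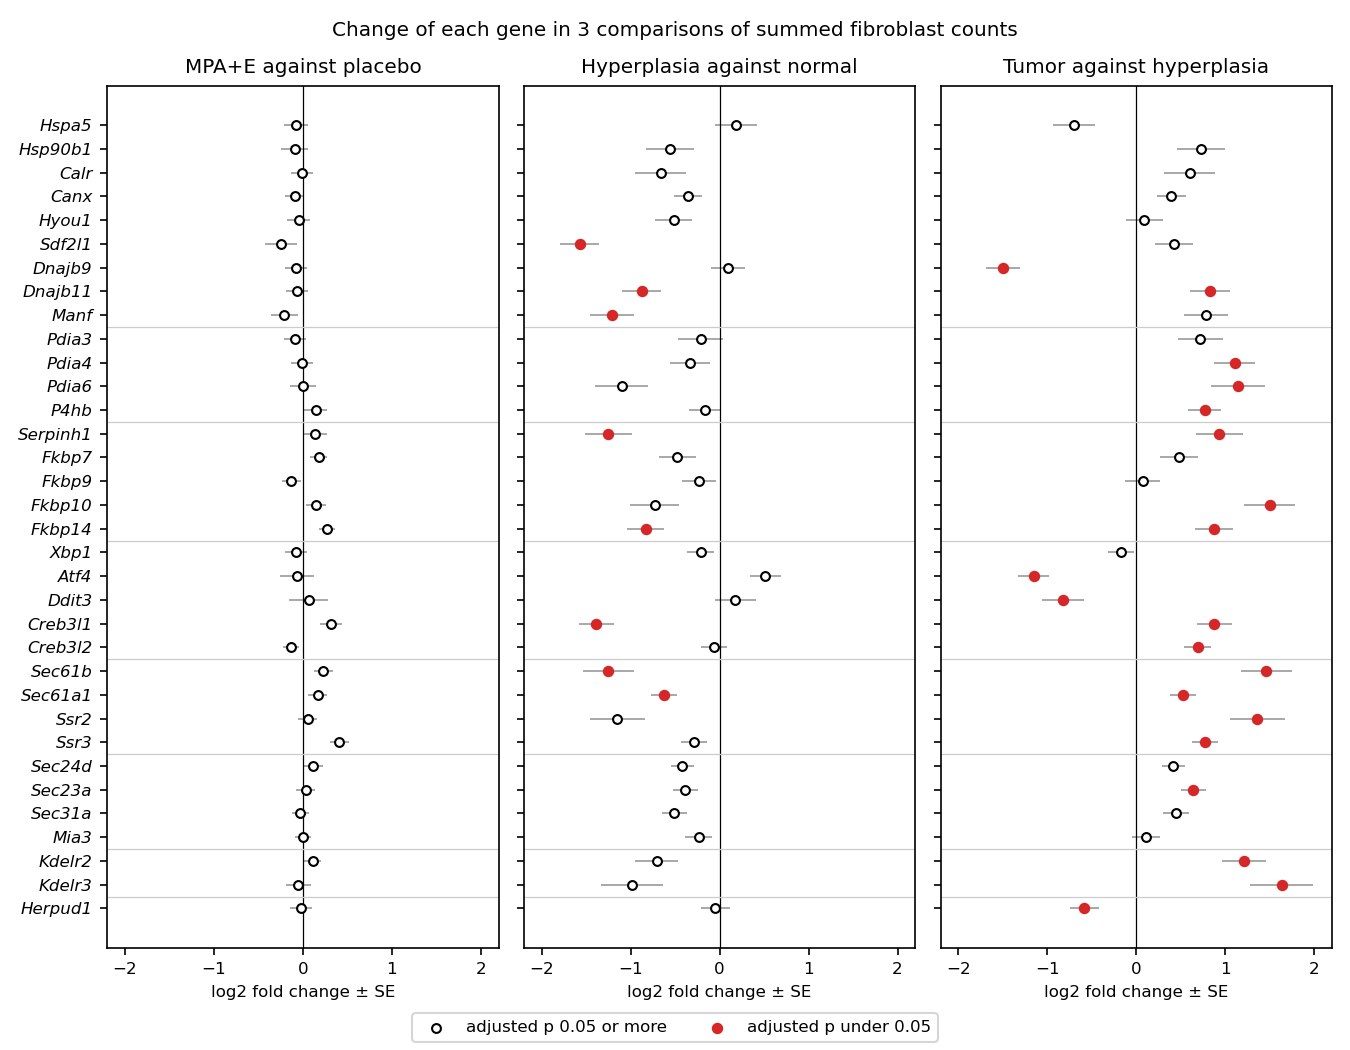
Log2 fold change (points) with its SE (lines) of the 34 genes in MPA+E against placebo (edgeR), hyperplasia against normal and tumor against hyperplasia (limma-voom), with filled red points for an adjusted p under 0.05. No point is filled in the first panel, 8 are in the second, all left of 0, and 20 are in the third, 16 right and 4 left of 0.

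The normal and raGFP-Wnt1 groups also differ in strain, genotype, sort and age, which cannot be told apart from hyperplasia, and the puberty and adult libraries are different ages rather than replicates. Cytosolic heat shock and immediate early genes, which rise when tissue is dissociated, summed to 31481 and 27575 CPM in hyperplasia, 14675 and 18822 CPM in the puberty and adult libraries, and 15796 and 12119.8 CPM in tumors. Of these 9 genes, 1 rose and 1 fell in hyperplasia against normal, 6 fell and 0 rose in tumor against hyperplasia, and their part in the results was not tested. Markers of other cells moved in part with the tumor: of 3 tested macrophage and leukocyte genes 2 rose and 1 fell, of 2 pericyte genes 1 rose, and 0 passed among the epithelial, endothelial, Schwann, plasma cell and muscle lists. In hyperplasia against normal 1 of 3 tested endothelial genes rose (Vwf, 2.55) and 1 fell (Kdr, -1.72), and 0 passed among the other lists of marker genes. Vwf was low, at 0.103 and 0.135 CPM in the puberty and adult libraries and 1.13 and 0.538 CPM in hyperplasia. The endothelial list summed to 22.6 and 26.8 CPM in the puberty and adult libraries, 5.47 and 12.7 CPM in hyperplasia and 2.81 and 3.52 CPM in tumor, and the part of these markers in the results was not tested. The macrophage list summed to 3.77 and 3.02 CPM in hyperplasia and 3.47 and 5.18 CPM in tumor, and the pericyte list to 5.89 and 5.83 CPM against 9.48 and 18 CPM, with Ptprc, Rgs5 and Pecam1 at 0 by the gate. Median UMIs per fibroblast were 8703 and 8311.5 in hyperplasia and 10824 and 20256 in tumor. The counts of called genes also rest on single libraries. In hyperplasia against normal, 0 of the 34 genes were called without the puberty library, the adult library, hyperplasia 1 or hyperplasia 2, beside at most 1.08% of all genes. Without tumor 1 and without tumor 2, 19 were called, beside 28.3% and 28.4% of all genes. In tumor against hyperplasia, 0 were called without hyperplasia 1 (beside 1.43% of all genes), 1 without hyperplasia 2 (1.84%), 11 without puberty (17.5%) and 11 without adult (17.3%), 26 without tumor 1 (41.9%) and 13 without tumor 2 (20.5%).

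Of the collagen chaperone and the 4 FK506-binding prolyl isomerases, 2 fell in hyperplasia and 3 rose in tumor. Serpinh1, at chr7:99345376-99353239 on the minus strand of GRCm38, encodes HSP47, the chaperone that binds the procollagen triple helix. It was at 2549 and 2188 CPM in the puberty and adult libraries, 1011 and 1027 CPM in hyperplasia 1 and 2, and 1468 and 2566 CPM in tumor 1 and 2. Both hyperplasia libraries lay below every other library of the series, and tumor 2 was level with puberty. It fell in hyperplasia, with a log2 fold of -1.25 ± 0.26 (adjusted p = 0.035), and rose in tumor by 0.93 ± 0.26 (adjusted p = 0.042), a call that held with the mouse as a block in the 6 libraries (adjusted p = 0.0292). It was lost in the 4 raGFP-Wnt1 libraries alone, with the block (adjusted p = 0.0557) or without it (0.0776), and without the barcodes with the most UMIs (0.0592). Fkbp10, a prolyl isomerase whose loss causes brittle bone through poorly crosslinked collagen, was at 105 and 93.0 CPM in the puberty and adult libraries, 56.6 and 66.5 CPM in hyperplasia 1 and 2, and 125 and 239 CPM in tumor 1 and 2. Both tumors were above every other library of the series. The fold in tumor was 1.5 ± 0.29 (adjusted p = 0.0168) and that in hyperplasia, -0.73 ± 0.28 (adjusted p = 0.117), did not pass. Fkbp14, which acts on collagen and is mutated in a form of Ehlers-Danlos syndrome, was at 72.5 and 63.4 CPM in the puberty and adult libraries, 35.1 and 43.7 CPM in hyperplasia 1 and 2, and 59.9 and 85.2 CPM in tumor 1 and 2. The 2 hyperplasia libraries were below the other libraries, with a fold of -0.83 ± 0.21 (adjusted p = 0.0472), and the tumor fold was 0.87 ± 0.21 (adjusted p = 0.0277). The hyperplasia call was lost under 4 alternatives (adjusted p = 0.05001 with RLE size factors, 0.0509 without the filter on low counts, 0.0506 at a mitochondrial limit of 5% and 0.0510 without the barcodes with the most UMIs), and the tumor call in the 4 raGFP-Wnt1 libraries without a block (0.0534). Fkbp7 and Fkbp9, of the same family, passed in neither comparison, with tumor folds of 0.48 and 0.07.

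**Figure D3:**
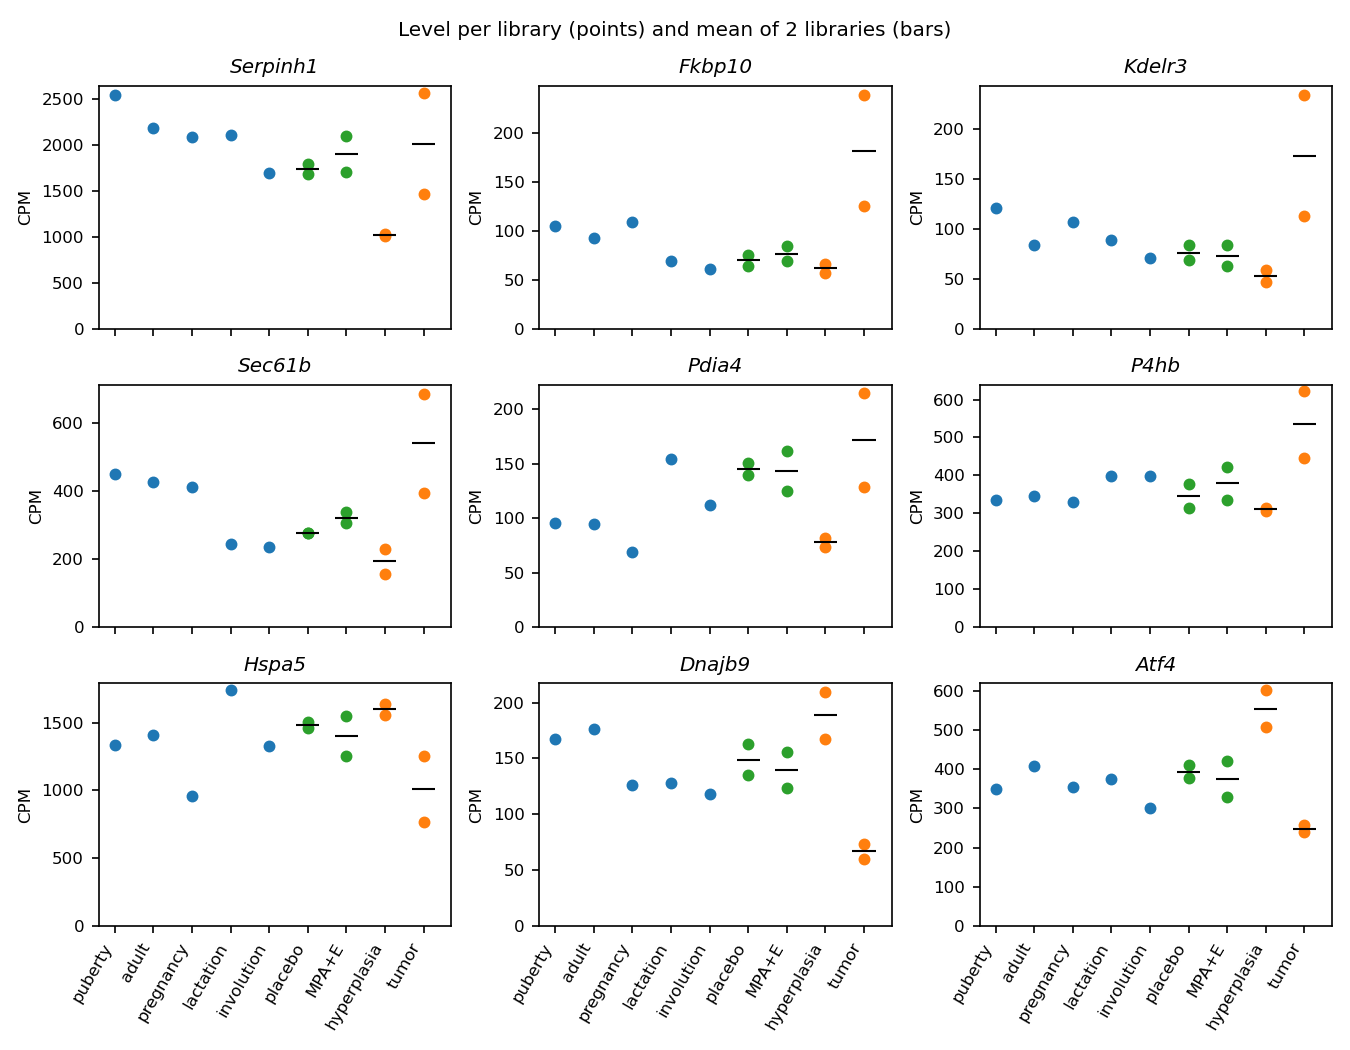
CPM of 9 genes in each library (points; blue for stages, green for hormone groups, orange for raGFP-Wnt1 groups), with bars at the mean of the 2 libraries of a group; the vertical axes start at 0. Serpinh1, Fkbp10, Kdelr3, Sec61b, Pdia4 and P4hb are higher in both tumor libraries than in both hyperplasia libraries, and Dnajb9 and Atf4 are lower in both.

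The protein disulfide isomerases, which form and reshuffle disulfide bonds, rose in tumor in 3 of 4 cases. P4hb, which is also the beta subunit of collagen prolyl 4-hydroxylase, was at 335 and 346 CPM in the puberty and adult libraries, 307 and 313 CPM in hyperplasia 1 and 2, and 446 and 623 CPM in tumor 1 and 2. The normal and hyperplasia values lay close together and both tumors were above them, with folds of -0.17 ± 0.18 (adjusted p = 0.537) and 0.77 ± 0.18 (adjusted p = 0.027). Pdia4 was at 95.7 and 94.9 CPM in the puberty and adult libraries, 73.4 and 82.3 CPM in hyperplasia 1 and 2, and 129 and 215 CPM in tumor 1 and 2, and its tumor fold was 1.10 ± 0.23 (adjusted p = 0.0207). Pdia6 was at 415 and 438 CPM in the puberty and adult libraries, 172 and 241 CPM in hyperplasia 1 and 2, and 324 and 615 CPM in tumor 1 and 2. Tumor 1 was still below both normal libraries while tumor 2 was above them, and the tumor fold was 1.14 ± 0.30 (adjusted p = 0.0359). Pdia3, the isomerase that works with calnexin and calreticulin on glycoproteins, missed the threshold in tumor at 0.72 ± 0.26 (adjusted p = 0.0742) and passed with the mouse as a block (adjusted p = 0.0196). In the 4 raGFP-Wnt1 libraries without a block the calls of P4hb and Pdia6 were lost (adjusted p = 0.0636 and 0.0729). No gene of this group passed in hyperplasia against normal.

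Of the 9 chaperones and co-chaperones 3 fell in hyperplasia, while 1 rose and 1 fell in tumor. Hspa5 (BiP), the central Hsp70 of the ER, which also holds the stress sensors inactive, was at 1337 and 1407 CPM in the puberty and adult libraries, 1559 and 1639 CPM in hyperplasia 1 and 2, and 769.8 and 1254 CPM in tumor 1 and 2. Its hyperplasia values were the highest of these 6 libraries, and it passed neither as 0.18 ± 0.23 (adjusted p = 0.604) nor as -0.70 ± 0.23 (adjusted p = 0.0646). With the mouse as a block in 6 libraries it fell in tumor, with a fold of -0.71 (adjusted p = 0.0329), and in the 4 raGFP-Wnt1 libraries it missed the threshold (0.0731 with the block). Dnajb9, at chr12:44205559-44210326 on the minus strand of GRCm38, encodes a co-chaperone of Hspa5 and is a target of XBP1. It was at 168 and 176 CPM in the puberty and adult libraries, 209.9 and 168 CPM in hyperplasia 1 and 2, and 73.6 and 59.8 CPM in tumor 1 and 2. Both tumors were below every other library of the series, with a fold of -1.5 ± 0.19 (adjusted p = 0.00703). Dnajb11, a co-chaperone that hands unfolded clients to Hspa5, was at 101 and 104 CPM in the puberty and adult libraries, 48.9 and 67.4 CPM in hyperplasia 1 and 2, and 84.4 and 123 CPM in tumor 1 and 2, with folds of -0.88 ± 0.22 (adjusted p = 0.0474) and 0.83 ± 0.22 (adjusted p = 0.0367). The first was lost with RLE size factors (adjusted p = 0.0507), with edgeR (0.0510) and without the barcodes with the most UMIs (0.0504), and the second in the 4 raGFP-Wnt1 libraries without a block (0.0746). Thus 2 partners of the same Hsp70 passed in opposite directions in tumor. Sdf2l1, which forms a complex with Dnajb11, was at 59.7 and 54.1 CPM in the puberty and adult libraries, 15.8 and 24.1 CPM in hyperplasia 1 and 2, and 25 and 27.5 CPM in tumor 1 and 2. It fell in hyperplasia, with a fold of -1.57 ± 0.22 (adjusted p = 0.0144), and the tumor fold was 0.42 ± 0.22 (adjusted p = 0.175). Hyperplasia and tumor were below every stage and hormone library for this gene. Manf, a secreted ER stress protein that binds Hspa5, was at 442 and 392 CPM in the puberty and adult libraries, 158 and 216 CPM in hyperplasia 1 and 2, and 257 and 389 CPM in tumor 1 and 2, with folds of -1.21 ± 0.25 (adjusted p = 0.0327) and 0.78 ± 0.25 (adjusted p = 0.0553), the second of which missed the threshold and passed with the mouse as a block (adjusted p = 0.0137 in 6 libraries and 0.0275 in 4). Hsp90b1 (GRP94), Calr, Canx and Hyou1 passed in neither comparison, and their tumor folds ranged from 0.09 for Hyou1 to 0.73 for Hsp90b1. With the mouse as a block in 6 libraries Hsp90b1 (adjusted p = 0.0219) and Calr (0.0331) also rose in tumor. Of the 5 genes with an ERSE window (Hspa5, Pdia6, Calr, Canx and Hsp90b1), Pdia6 alone passed in tumor without the block. With the block in 6 libraries Pdia6, Calr and Hsp90b1 rose, Hspa5 fell and Canx did not pass. Canx was still higher in the tumor of both mice, with ratios to hyperplasia of 1.38 in mouse 1 and 1.25 in mouse 2.

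Of the 5 transcription factors 1 fell in hyperplasia, and 2 rose and 2 fell in tumor. Creb3l1, a membrane-bound factor that drives collagen gene transcription in bone and fibrotic tissue, was at 199.9 and 164 CPM in the puberty and adult libraries, 69.2 and 73.4 CPM in hyperplasia 1 and 2, and 111 and 153 CPM in tumor 1 and 2. The hyperplasia values were less than those of every other library, with folds of -1.39 ± 0.20 (adjusted p = 0.0156) and 0.88 ± 0.20 (adjusted p = 0.0239). Creb3l2, its relative, which controls Sec23a in cartilage, was at 60.7 and 72.1 CPM in the puberty and adult libraries, 68.4 and 61.5 CPM in hyperplasia 1 and 2, and 108 and 101 CPM in tumor 1 and 2 and passed in tumor alone, at 0.69 ± 0.15 (adjusted p = 0.0233). Atf4, the factor of the PERK arm, was at 349 and 409 CPM in the puberty and adult libraries, 602 and 507 CPM in hyperplasia 1 and 2, and 258 and 239 CPM in tumor 1 and 2. Hyperplasia was above and tumor below all the other libraries of the series, with folds of 0.52 ± 0.17 (adjusted p = 0.0877) and -1.16 ± 0.17 (adjusted p = 0.00946). Ddit3 (CHOP), the proapoptotic factor downstream of Atf4, was at 54.2 and 40.4 CPM in the puberty and adult libraries, 62.7 and 47.0 CPM in hyperplasia 1 and 2, and 32.9 and 28.5 CPM in tumor 1 and 2, and fell in tumor, -0.82 ± 0.23 (adjusted p = 0.0421). Both tumors were below all other libraries, but the normal and hyperplasia values overlapped. The call was lost without the barcodes with the most UMIs (adjusted p = 0.05003) and in the 4 raGFP-Wnt1 libraries without a block (0.0513). Xbp1, the factor that IRE1 activates by splicing its mRNA, was at 214 and 249 CPM in the puberty and adult libraries, 199.5 and 208 CPM in hyperplasia 1 and 2, and 168 and 194 CPM in tumor 1 and 2 and passed in neither comparison, at -0.21 ± 0.15 (adjusted p = 0.35) and -0.17 ± 0.15 (adjusted p = 0.406). Total Xbp1 counts from the 3′ end do not separate the spliced form. Herpud1, which supports ER-associated degradation, was at 128 and 122 CPM in the puberty and adult libraries, 135 and 113 CPM in hyperplasia 1 and 2, and 84.3 and 80.7 CPM in tumor 1 and 2, and fell in tumor, with a fold of -0.58 ± 0.16 (adjusted p = 0.039). The tumor values were below every other library. The call was lost without the filter on low counts (adjusted p = 0.0535) and in the 4 raGFP-Wnt1 libraries without a block (0.0745). It carries the ATF4 element and ERSE-II in the window shown above.

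All 4 translocon genes rose in tumor. Sec61b, a subunit of the Sec61 channel, was at 449.8 and 427 CPM in the puberty and adult libraries, 157 and 229 CPM in hyperplasia 1 and 2, and 394 and 685 CPM in tumor 1 and 2, with folds of -1.25 ± 0.29 (adjusted p = 0.0401) and 1.46 ± 0.29 (adjusted p = 0.0181). Sec61a1, which forms the channel itself, was at 137 and 146 CPM in the puberty and adult libraries, 92.5 and 95.7 CPM in hyperplasia 1 and 2, and 122 and 149.6 CPM in tumor 1 and 2, with folds of -0.63 ± 0.15 (adjusted p = 0.0422) and 0.52 ± 0.15 (adjusted p = 0.0423). The second held with the mouse as a block in the 6 libraries (adjusted p = 0.0236). It was lost in the 4 raGFP-Wnt1 libraries alone, with the block (adjusted p = 0.0585) or without it (0.0926), and without the barcodes with the most UMIs (0.0561). Ssr2, of the translocon-associated protein complex, was at 222 and 183 CPM in the puberty and adult libraries, 80.3 and 109 CPM in hyperplasia 1 and 2, and 173 and 331 CPM in tumor 1 and 2. Tumor 1 lay a little below the adult library and tumor 2 above every other library, and the folds were -1.15 ± 0.31 (adjusted p = 0.0542) and 1.36 ± 0.31 (adjusted p = 0.0248). Ssr3, of the same complex, was at 219.8 and 224 CPM in the puberty and adult libraries, 183 and 189 CPM in hyperplasia 1 and 2, and 292 and 344 CPM in tumor 1 and 2, with a tumor fold of 0.77 ± 0.15 (adjusted p = 0.0169).

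Of the 4 genes of COPII export, Sec23a, a coat subunit whose loss impairs collagen secretion, was at 63.8 and 64.8 CPM in the puberty and adult libraries, 49.3 and 51.7 CPM in hyperplasia 1 and 2, and 72.1 and 85.5 CPM in tumor 1 and 2 and rose in tumor by 0.64 ± 0.14 (adjusted p = 0.0227). The cargo adaptor Sec24d, the outer coat gene Sec31a and Mia3 (TANGO1), the receptor that loads bulky procollagen, did not pass, with tumor folds of 0.42, 0.45 and 0.11. With the mouse as a block in 6 libraries Sec24d (adjusted p = 0.0323) and Sec31a (0.0288) rose, and in the 4 raGFP-Wnt1 libraries without a block the call of Sec23a was lost (0.0534). None of the 4 passed in hyperplasia. Both KDEL receptors, which return escaped chaperones from the Golgi, rose in tumor. Kdelr2 was at 293 and 255 CPM in the puberty and adult libraries, 151 and 196 CPM in hyperplasia 1 and 2, and 316 and 499 CPM in tumor 1 and 2, with a fold of 1.21 ± 0.25 (adjusted p = 0.0194). Kdelr3, at chr15:79516411-79527739 on the plus strand of GRCm38, was at 121 and 83.5 CPM in the puberty and adult libraries, 46.9 and 58.8 CPM in hyperplasia 1 and 2, and 113 and 234 CPM in tumor 1 and 2, with a fold of 1.64 ± 0.35 (adjusted p = 0.022), the highest of the 34 genes. Tumor 1 was close to puberty for both genes, and tumor 2 was above every other library.

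Within each mouse, 26 of the 34 genes were higher and 6 were lower in the tumor of both mice, beside 45.4% and 38% of the 9649 genes with a mean of at least 5 CPM, and 2 (Fkbp9 and Mia3) went in opposite directions. The summed level of the 34 genes was 1.15-fold higher in the tumor of mouse 1 and 1.62-fold higher in that of mouse 2. Kdelr3 was 2.41- and 3.98-fold higher, Fkbp10 2.21- and 3.59-fold, and Serpinh1 1.45- and 2.50-fold. The Dnajb9 ratios were 0.351 and 0.357, the closest agreement between the mice among the genes that fell. The 2 tumors themselves differed. In tumor 2, 13 of the 34 genes were at least 1.5-fold above tumor 1 and 0 were as far below it, beside 6.9% and 11% of the 9649 genes. In hyperplasia 2 against hyperplasia 1, 1 gene (Sdf2l1) was this far above and 0 below, beside 2.56% and 2.34%. None of the 34 differed this much between the placebo libraries, beside 1.51% higher and 1.61% lower in placebo 2, or between the MPA+E libraries, beside 4.33% higher and 2.47% lower in MPA+E 2.

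Neighboring genes of the same pathways were read from lists that do not overlap these 34 genes. Their counts in tumor against hyperplasia stand beside 15.4% of all genes that rose and 13.9% that fell. Of 13 collagen modification enzymes, 8 rose and 0 fell in tumor against hyperplasia (median log2 fold 0.87), among them the prolyl hydroxylase subunits P4ha3 (3.45) and P4ha2 (1.54), the prolyl 3-hydroxylase P3h1 (1.59) and the collagen galactosyltransferase Colgalt1 (1.15). Of 8 collagen cargo genes 3 rose, namely Col1a1 (1.99), Col5a2 (1.62) and Col5a1 (0.97). Of 18 other genes for the translocon, the signal peptidase and the oligosaccharyl transferase 11 rose and 0 fell, led by Ostc (1.25) and Ssr4 (1.22). Of 18 other genes for COPII and early Golgi traffic 8 rose and 0 fell, led by the cargo receptor Lman1 (1.2), and of 14 other ER-associated degradation genes 3 rose and 0 fell. Of 10 unfolded protein response sensors and feedback genes 0 rose and 2 fell, Ppp1r15a (-1.64) and Ppp1r15b (-0.90), which both direct the phosphatase that restores translation. Of 14 ATF4 targets 3 rose and 3 fell. The amino acid and one-carbon enzymes Psat1 (2.02) and Mthfd2 (1.82) were among those that rose. The stress genes Trib3 (-1.59) and Atf3 (-1.54) were among those that fell. Trib3 was low, at 1.81 and 2.10 CPM in hyperplasia and 0.849 and 0.478 CPM in tumor. Psat1 was also low, at 1.52 and 2.39 CPM in hyperplasia and 6.41 and 9.74 CPM in tumor. The lists and their counts were chosen with earlier results of these data known.

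In hyperplasia against normal, beside 6.29% of all genes that fell and 7.7% that rose, of the 18 other translocon genes 0 rose and 8 fell, of the 18 other COPII genes 4 fell, and of the 14 other degradation genes 5 fell. The collagen modification enzymes split, with 1 higher (P3h3, 1.01) and 2 lower (P4ha2, -1.37, and Colgalt1, -1.09). None of the 8 collagen cargo genes passed. All 8 had a fold below 0 (median -0.82), beside 50.3% of all genes. The 2 libraries joined as normal were far apart here, with cargo sums of 60618 CPM in puberty and 24642 CPM in adult. In hyperplasia 1 and 2 the sums were 20499 and 15648 CPM. Among sensors and feedback genes 3 rose, Ppp1r15a (1.29), Ppp1r15b (1.08) and the PERK gene Eif2ak3 (0.75), and 2 fell, including Creld2 (-1.53). Of the 14 ATF4 targets 4 fell and 0 rose, which were the biosynthetic enzymes Psat1, Mthfd2, Asns and Phgdh. Psat1 was low, at 10.4 and 7.43 CPM in the puberty and adult libraries and 1.52 and 2.39 CPM in hyperplasia. Atf4 itself, at 0.52, did not pass. Without any 1 of the normal or hyperplasia libraries, at most 1.08% of all genes were called in this comparison.

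Fibroblast states were rebuilt in each library by clustering without the 34 genes and named from markers. A name such as progenitor-like means only that its markers were raised in the cluster. Clusters without a name held from 20.2% of the fibroblasts in placebo 2 to 58.8% in lactation. Their share was 26.2% in placebo 1 and 26.9% and 45.7% in MPA+E 1 and 2. It was 30.6% and 42.1% in hyperplasia 1 and 2 and 36.8% and 44.2% in tumor 1 and 2. These cells were in no state test and counted among the other fibroblasts in the state ratios. State composition differed between groups: myofibroblastic-like fibroblasts made up 17.99% and 19.22% of the tumor libraries and were not named in hyperplasia, and the part of composition in the tumor result was not tested. Within progenitor-like fibroblasts, 0 of the 34 genes were called in tumor against hyperplasia, beside 0% of all genes, with 8 of the 34 and 12.3% of all genes at an unadjusted p under 0.05. Within ECM remodelling-like fibroblasts 0 were called, beside 0.199% of all genes, with 14 of the 34 and 22.5% of all genes at an unadjusted p under 0.05. With the mouse as a block 12 of the 34 genes were called in the latter state, of which 8 were higher and 4 lower, beside 7.28% and 5.72% of all genes, and 0 in the former, beside 0%. With coarser clusters (Leiden resolution 0.4) 0 were called in either state, beside 0.0164% in ECM remodelling-like and 0.103% in progenitor-like cells. The median log2 fold of the 34 genes within these states was 0.38 and 0.33, beside -0.027 and -0.0077 over all genes. Serpinh1 was at 856 and 775 CPM in the progenitor-like cells of the hyperplasia libraries and 1025 and 2005 CPM in those of the tumors. Kdelr3 was at 40.3 and 50.2 CPM in progenitor-like cells of hyperplasia and 70.1 and 146 CPM in those of tumors, and in ECM remodelling-like cells at 39.3 and 54.3 CPM and 81.2 and 162 CPM. Dnajb9 was at 189 and 173 CPM in ECM remodelling-like cells of hyperplasia and 94.3 and 54.4 CPM in those of tumors. For each of these genes and states both tumors lay on the same side of both hyperplasia libraries. Without tumor 1, 13 of the 34 genes were called in progenitor-like and 21 in ECM remodelling-like fibroblasts, beside 15.1% and 34.3% of all genes, and without tumor 2, 0 and 3, beside 2.12% and 5.08%.

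To ask whether the machinery responds to acute hormone exposure, MPA+E was compared with placebo by edgeR's quasi-likelihood test, with 2 libraries per group. None of the 34 genes was called, beside 4.33% of all 15642 genes tested, and an unadjusted p below 0.05 was found for 2 of the 34, beside 18.5% of all genes. With DESeq2, 1 gene was called (Ssr3), beside 8.68% of all genes. The fold farthest from 0 was that of Ssr3, at 269 and 246 CPM in placebo and 332 and 346 CPM in MPA+E, with a fold of 0.41 ± 0.11 (adjusted p = 0.132). The groups did not overlap for this gene. Creb3l1 was at 131 and 106 CPM in placebo and 161 and 130.5 CPM in MPA+E, where MPA+E 2 lay just below placebo 1, with 0.31 ± 0.12 (adjusted p = 0.278). Serpinh1 was at 1798 and 1686 CPM in placebo and 2096 and 1709 CPM in MPA+E, also overlapping, with 0.13 ± 0.13 (adjusted p = 0.687). P4hb was at 378 and 314 CPM in placebo and 423 and 336 CPM in MPA+E, with 0.15 ± 0.13 (adjusted p = 0.648), and its groups overlapped. Hspa5 (-0.078), Xbp1 (-0.076), Atf4 (-0.062) and Ddit3 (0.063) had folds close to 0, and over the 34 genes folds ran from -0.25 in Sdf2l1 to 0.41 in Ssr3.

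Outside the 34 genes, beside 2.69% of all genes that rose and 1.64% that fell, of the 13 collagen modification enzymes 2 rose and 0 fell, the prolyl hydroxylase subunit P4ha3 (2.03 ± 0.11, adjusted p = 0.00691) and the lysyl hydroxylase Plod2 (1.2 ± 0.20, adjusted p = 0.0446). None of the 8 collagen cargo genes was called. All 8 had folds above 0 (median 0.26), while 49.2% of all genes had folds below 0. Their sums overlapped, at 33480 and 27876 CPM in placebo 1 and 2 and 44095 and 32979 CPM in MPA+E 1 and 2. No gene was called among the other translocon, COPII, degradation and sensor lists, and 1 each among the ATF4 targets (Psat1, 0.77) and the heat shock genes (Hspa1b, 0.90). The endothelial list summed to 14.5 and 14.6 CPM in placebo and 43.9 and 45.7 CPM in MPA+E, with Pecam1 at 0 by the gate. Of its 3 tested genes 2 rose. Kdr made up most of the sum, at 14.2 and 14.1 CPM in placebo and 43.2 and 45.2 CPM in MPA+E. Vwf, the other, was at 0.0720 and 0.0555 CPM in placebo and 0.310 and 0.285 CPM in MPA+E. No gene passed among the 1 epithelial, 2 pericyte, 3 Schwann, 3 macrophage, 1 plasma cell and 2 muscle genes tested.

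Within states the hormone effect was tested in the 5 that were named in all 4 libraries. Of the 34 genes 0 were called in adipogenesis-regulatory-like (beside 3.55% of all genes), lobular-like (1.79%), preadipocyte-like (0%) and progenitor-like fibroblasts (2.63%). In ECM remodelling-like fibroblasts 1 was called, beside 5.2% of all genes. This was Sdf2l1, at 32.1 and 42.7 CPM in placebo and 19.3 and 15.9 CPM in MPA+E, with a fold of -1.27 ± 0.21 (adjusted p = 0.0208). The groups did not overlap, but without placebo 2 the adjusted p was 0.0943. The clustering decided which cells carried the name. The state held 4.99% and 8.36% of the fibroblasts of MPA+E 1 and 2 and 16.9% and 12.1% of those of placebo 1 and 2, and with coarser clusters 25.5% and 29.2% against 22.4% and 13.6%. With the coarser clusters 0 of the 34 genes were called, beside 0.712% of all genes, and the fold of Sdf2l1 was -0.92 (adjusted p = 0.221). Hspa5 in the same state was at 1779.7 and 1800.3 CPM in placebo and 1430.2 and 1155 CPM in MPA+E, and missed the threshold at -0.66 ± 0.17 (adjusted p = 0.0774). In that state 28 of the 34 genes had a fold below 0, beside 50.2% of all genes, with a median of -0.29 beside -0.0014 over all genes. Without the filter on low counts 6 of the 34 were lower there and 0 higher, beside 5.3% and 3.84% of all genes.

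The difference between states was tested directly, as the MPA+E effect in progenitor-like fibroblasts minus the mean effect in the other 4 states. It passed for 3 of the 34 genes, beside 4.67% of all genes. For Hspa5 the difference was 0.47 ± 0.089 (adjusted p = 0.0113). Its level in progenitor-like cells was 1276 and 1268 CPM in placebo and 1544 and 1285 CPM in MPA+E, whereas in lobular-like cells it was 1682 and 1604 CPM in placebo and 1520.1 and 1175 CPM in MPA+E. For Dnajb11 the difference was 0.35 ± 0.087 (adjusted p = 0.0388). Fkbp14 went the other way, at -0.49 ± 0.12 (adjusted p = 0.0323): it was at 60.6 and 55.0 CPM in placebo and 56.9 and 56.2 CPM in MPA+E among progenitor-like cells, and at 58.6 and 52.4 CPM and 80.9 and 80.3 CPM among preadipocyte-like cells. All 3 calls were lost without placebo 1 or without placebo 2, and those of Dnajb11 and Fkbp14 also without MPA+E 1. The difference was not tested with coarser clusters, which changed the share of ECM remodelling-like cells, 1 of the other 4 states.

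Across development each stage had 1 library, so the ratios that follow have no replicate check and no p-value. A gene was counted when 2 consecutive stages (or pregnancy and adult) differed at least 1.5-fold, among 9649 genes with a mean of at least 5 CPM. Intervals are 95% and cover counting error only. Between puberty and adult 0 of the 34 genes were past this ratio, beside 2.35% of genes higher and 3.57% lower in puberty. In pregnancy against adult 0 were higher and 1 was lower, Sdf2l1 at 0.642 (95% interval 0.606 to 0.68), beside 2.64% and 1.54% of all genes, and it was not past the ratio without the barcodes with the most UMIs. In lactation against pregnancy 5 were higher and 3 lower, beside 16.6% and 9.19%, both near the share of all genes. In involution against lactation 0 were higher and 6 lower, beside 4.94% and 3.64%. With library sizes scaled by TMM, 1196 genes were higher and 1315 lower in lactation against pregnancy, instead of 1602 and 887, as the median log2 ratio of all genes moved from 0.070 to -0.041, and the same 8 of the 34 genes were past the ratio. The split changed from 477 higher and 351 lower to 598 and 232 in involution against lactation, and from 227 and 344 to 280 and 279 in puberty against adult, where Kdelr3 then passed as higher.

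Among the 5 stages lactation held the highest summed level of the 9 chaperones, at 4736 CPM. Puberty, adult, pregnancy and involution were at 4141, 4361, 3341 and 3580 CPM. Of these sums Hspa5 alone made up 1743 CPM in lactation and 1407 CPM in adult. The 4 protein disulfide isomerases were also highest in lactation, at 1561 CPM, beside 1317, 1364, 1167 and 1299 CPM in the same order. From puberty through adult, pregnancy and lactation to involution, Pdia4 was at 95.7, 94.9, 69.5, 155 and 113 CPM. Its ratio of lactation to pregnancy was 2.22 (95% interval 2.14 to 2.31), and no other of the 34 genes had a wider range over the stages. Hyou1, a nucleotide exchange factor for Hspa5, was at 24.8, 29.1, 19.9, 41.4 and 25.4 CPM, with a ratio of lactation to pregnancy of 2.08 (95% interval 1.93 to 2.25). Creb3l2 was at 60.7, 72.1, 63.5, 132 and 87.0 CPM and Hspa5 at 1337, 1407, 960.0, 1743 and 1330.4 CPM. Pregnancy was the lowest of the 5 stages for Pdia4, Hyou1 and Hspa5, and lactation the highest for all 4 genes. The lactation to pregnancy ratio of Hspa5 was 1.82 (95% interval 1.80 to 1.84) and that of Creb3l2 2.08 (95% interval 1.99 to 2.17). The fifth gene past the ratio was Sdf2l1, at 1.77 (95% interval 1.67 to 1.88).

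**Figure D4:**
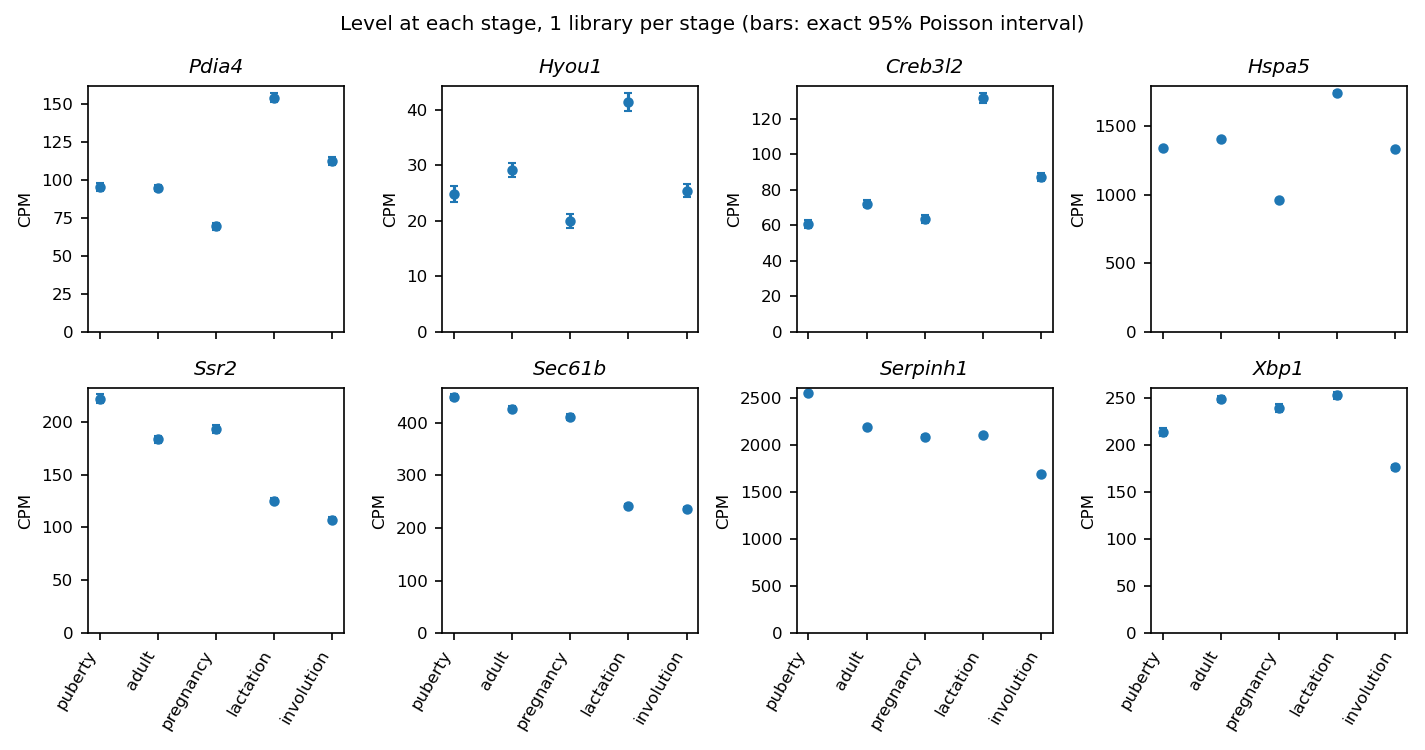
CPM of 8 genes at each of the 5 stages, with exact 95% Poisson intervals of the counts (many are smaller than the points) and vertical axes that start at 0. Pdia4, Hyou1, Creb3l2 and Hspa5 are highest in lactation, while Ssr2 and Sec61b are lower in lactation and involution than in the 3 earlier stages.

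At lactation 2 of the 4 translocon genes were past the ratio in the other direction. Ssr2 was at 222, 183, 193, 125 and 107 CPM over the same 5 stages, and Sec61b at 449.8, 427, 412, 243 and 236 CPM. Both were lower in lactation and involution than in the 3 earlier stages, with lactation to pregnancy ratios of 0.649 (95% interval 0.63 to 0.669) and 0.59 (95% interval 0.577 to 0.602). Without the barcodes with the most UMIs Ssr2 was no longer past the ratio, and Pdia3 was, as higher in lactation. This left 6 genes higher and 2 lower, beside 16.9% and 8.69% of all genes. Fkbp10 was the third gene past the ratio in this direction, at 0.632 (95% interval 0.607 to 0.658). Serpinh1 was at 2549, 2188, 2086, 2106 and 1693 CPM, highest at puberty, and its highest level was 1.51-fold its lowest. P4hb was at 335, 346, 329, 398 and 399 CPM, Xbp1 at 214, 249, 239, 253 and 176 CPM, Atf4 at 349, 409, 354, 376 and 301 CPM and Ddit3 at 54.2, 40.4, 46.7, 41.4 and 47.1 CPM. These 4 genes stayed within 1.44-fold over the stages. At involution Hyou1, Sdf2l1, Dnajb11, Manf, Creb3l1 and Creb3l2 were past the ratio below lactation, with Sdf2l1 the farthest at 0.494 (95% interval 0.469 to 0.521). The median log2 ratio of all genes was -0.12 there, and with TMM scaling, which brought it to -0.024, 3 of the 6 remained past the ratio (Hyou1, Sdf2l1 and Creb3l1). At a mitochondrial limit of 5% Dnajb11 was no longer past it and the other 5 were. Milk protein genes summed to 837 CPM in the fibroblasts of the lactation library, 35.2 CPM in pregnancy and 13.3 CPM in involution, and their part in these ratios was not tested. Epithelial genes summed to 33.4 CPM in pregnancy and 0.603 CPM in lactation, with Epcam at 0 by the gate.

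Over the 5 stages the ratio of the highest to the lowest level had a median of 1.49 among the 34 genes. The widest were Pdia4 (2.22), Creb3l2 (2.17), Hyou1 (2.08) and Ssr2 (2.07), and the narrowest was the COPII adaptor Sec24d (1.18). The lowest stage was involution for Serpinh1, Sec24d, Sec31a, Manf and Xbp1 among others, and pregnancy for Pdia4, Hyou1, Hspa5, Hsp90b1 and Pdia3.

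The states within a library were described by the ratio of a state to the other fibroblasts of the same library, without a test, since the same cells were clustered. Progenitor-like fibroblasts, marked by genes such as Pi16 and Dpp4, were named in all 13 libraries. Of the 34 genes 10 were lower in every library, beside 12.1% of all genes, and 1 was higher in every library, beside 9.99%. The 10 were Serpinh1, Fkbp7, Fkbp9, Fkbp10, P4hb, Calr, Ssr2, Sec24d, Kdelr3 and Ddit3, which include 4 of the 5 genes for the collagen chaperone and the prolyl isomerases. The same 10 genes were found with coarser clusters (Leiden resolution 0.4), beside 13% of all genes. They were also found without the barcodes with the most UMIs, beside 12.2%.

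**Figure D5:**
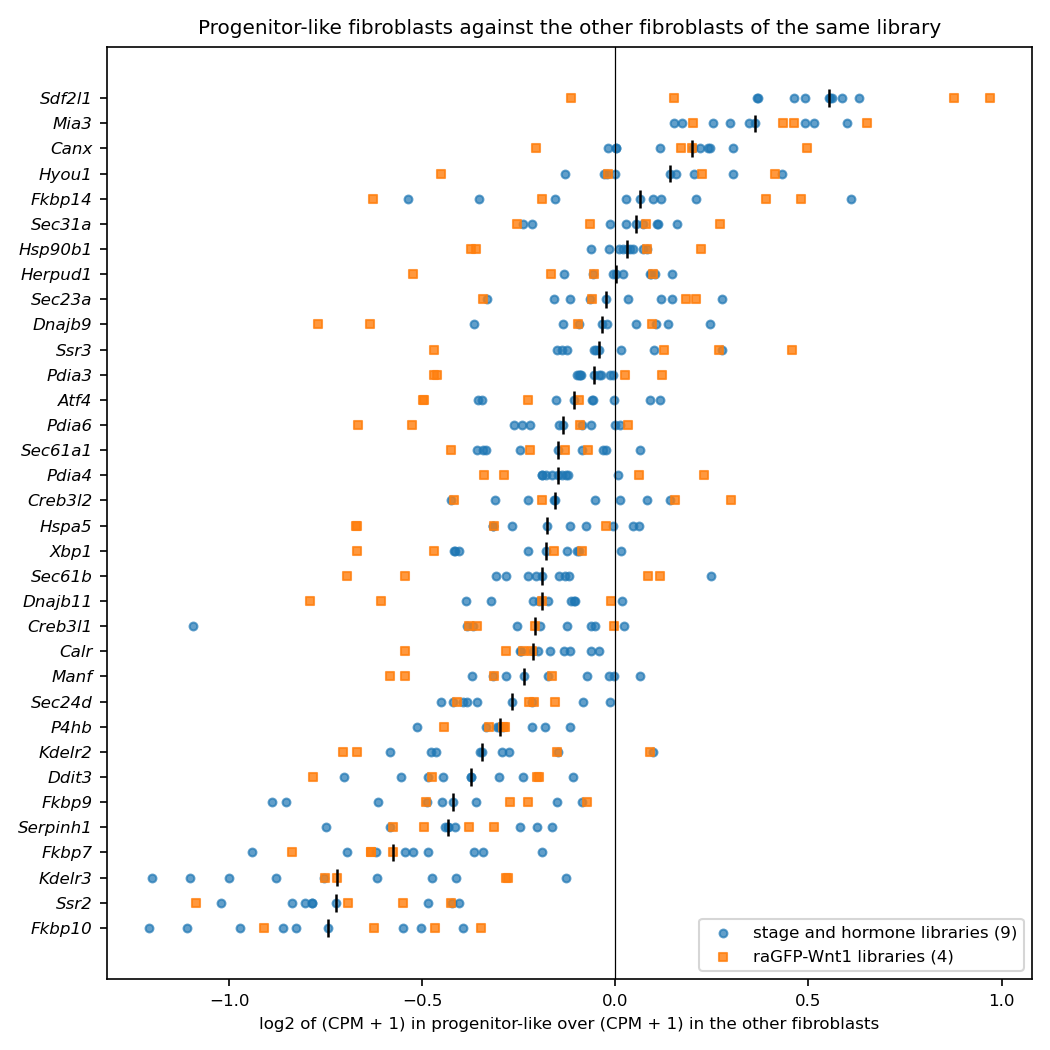
Ratio of progenitor-like fibroblasts to the other fibroblasts of the same library, as log2 of (CPM + 1) over (CPM + 1), for the 34 genes in 13 libraries (circles for 9 stage and hormone libraries, squares for 4 raGFP-Wnt1 libraries; the tick is the median). Fkbp10, Ssr2 and Kdelr3 lie left of 0 in every library and Mia3 lies right of 0 in every library.

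Serpinh1 ran from 775 to 2205 CPM in progenitor-like cells and from 1064 to 2619 CPM in the other fibroblasts, and its ratio was 0.595 to 0.893, median 0.741. In lactation it was at 1347 against 2264 CPM, the lowest ratio of the 13 libraries, and in pregnancy at 1902 against 2129.8 CPM, the highest. Fkbp10 had the lowest median, with ratios of 0.426 to 0.782, median 0.593, and Kdelr3 had ratios of 0.429 to 0.915, median 0.605. P4hb stayed closer to the other cells, at 0.699 to 0.921, median 0.813. Mia3, by contrast, was higher in progenitor-like cells of all 13 libraries, with ratios of 1.11 to 1.57, median 1.29. In involution it was at 273 against 179 CPM. Sdf2l1 was higher in 12 of 13, at 0.921 to 2.04, median 1.48, with tumor 2 as the exception (25.5 against 27.7 CPM). Summed over the 34 genes, progenitor-like cells were lower in every library, with ratios of 0.768 to 0.959, median 0.865. The genes named here beyond Serpinh1 and P4hb were picked after their values were seen.

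Adipogenesis-regulatory-like fibroblasts, marked by Gdf10 and F3 among others, were named in 11 libraries. Here 15 of the 34 genes were lower in every library, beside 23.7% of all genes, and 1 was higher, Sec61b, beside 8.39%. The lowest median ratios were those of Creb3l2 (0.524 to 0.739, median 0.592), Creb3l1 (0.587 to 0.818, median 0.701) and Kdelr3 (0.559 to 0.87, median 0.705). Unlike in progenitor-like cells, Serpinh1 was near the other fibroblasts, at 0.88 to 1.08, median 0.943, and Mia3 was lower in all 11 libraries, at 0.781 to 0.925, median 0.867. Sec61b had ratios of 1.00 to 1.30, median 1.12.

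ECM remodelling-like fibroblasts, marked by Crabp1 and Tnc among others and named in 11 libraries, had 1 gene higher in every library, Fkbp9 (1.01 to 1.66, median 1.38), beside 9.11% of all genes, and 0 lower, beside 9.24%. Fkbp7 was higher in 10 of 11, at 0.92 to 1.96, median 1.61, and Sdf2l1 lower in 10 of 11, at 0.378 to 1.01, median 0.542, which is the reverse of progenitor-like cells for both. Serpinh1 was higher in 7 of 11. With coarser clusters Xbp1, and not Fkbp9, was higher in every library. Preadipocyte-like fibroblasts, marked by Fabp4 and Cd36, had 2 genes higher in all 11 libraries, beside 2.83% of all genes, and 1 lower, beside 7.33%. With coarser clusters 8 genes were higher in the 10 libraries that then held the state, beside 4.25% of all genes, and 1 was lower (Herpud1), beside 10.2%, while Sdf2l1 was lower in 9 of the 10. Without the barcodes with the most UMIs Sdf2l1 was lower in 10 of 11 and no gene of the 34 was lower in every library, beside 6.82% of all genes. The 2 were Fkbp10 (1.03 to 1.68, median 1.46) and Ssr2 (1.06 to 1.51, median 1.28), and the one lower was Sdf2l1 (0.521 to 0.975, median 0.688). Cycling fibroblasts were named with at least 50 cells in 6 libraries. There 5 genes (Dnajb11, Kdelr2, P4hb, Ssr2 and Ssr3) were higher in all 6, beside 17.6% of all genes. The 4 lower in all 6 were Hspa5, Dnajb9, Herpud1 and Xbp1, beside 10.8%. Both counts were near the share of all genes. Without the barcodes with the most UMIs 4 libraries held the state, with 7 genes higher and 11 lower, beside 25.9% and 18.3% of all genes. Lobular-like fibroblasts were named in 12 libraries. No gene of the 34 was on 1 side in every library there, beside 3.79% of all genes higher and 7.17% lower. In the 2 tumors the summed level of the 34 genes in myofibroblastic-like cells was 9236 and 11389 CPM, against 9097 and 14530.3 CPM in the other fibroblasts. The states described and the genes named in them were chosen after the values were seen, apart from those that the naming rule gives.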

How the data were processed

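Libraries were made with the 10x Chromium 3′ kit, and the deposited values are raw UMI counts per gene and barcode, which the authors obtained with Cell Ranger 6.1.2 on mm10 according to the submitters' processing notes. Each library had between 56551189 and 112550204 UMIs, and its fibroblasts, 84.7% to 94.5% of the barcodes with 500 to 7500 genes and at most 10% mitochondrial UMIs, were gated as stated in the report. No doublet caller was run; barcodes with the most UMIs were left out as an alternative. Counts were added up over the fibroblasts of a library, or of a state in a library where it had at least 50 cells. Hormone libraries were compared with edgeR 4.0.16 (quasi-likelihood test, TMM, filterByExpr, R 4.3.3) and the 6 normal, hyperplasia and tumor libraries with limma 3.58.1 (voom), with Benjamini-Hochberg adjustment over all genes tested at a threshold of 0.05 and an SE for each log2 fold. DESeq2 1.42.0, other size factors, no filter, other gates, leaving out libraries and a replicate block were alternatives; the mouse block in 6 libraries, the 4 raGFP-Wnt1 libraries without a block and state tests with coarser clusters were chosen after seeing the data. Differences between stages (1 library each) and between a state and the other fibroblasts of its library were not tested. The hormone replicates were separate pairs of females, and the 2 hyperplasia and 2 tumor libraries came from 2 mice. Hyperplasia and tumor samples of the same number were paired by mouse in the labels, and deviations from the group means correlated by 0.0954 over 16001 genes.

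States were found in each library with 1000 variable genes, without the 34 genes and the listed ER and collagen genes, 30 principal components, 20 neighbors and Leiden clustering at a resolution of 0.8 (leidenalg 0.10.2). A cluster was named when its markers were, on average, at least 1 log2 unit above the other fibroblasts and at least 4 markers were raised 2-fold (5 where no marker led), limits that were set after the cluster tables were seen and before the levels of the 34 genes by state were. The members, lists, motifs and tests were chosen with earlier results of these data known. Full values are given for genes that passed a comparison with an absolute log2 fold of at least 0.5, for the 4 with the widest stage range and for Hspa5, Serpinh1, P4hb, Xbp1, Atf4 and Ddit3, and of each other list at most the 4 with the largest folds were named. A second matrix row for Ddit3 had 0 UMIs. In simulated counts for the 15642 genes of the hormone comparison, 53% of 100 genes changed 2-fold and 85% of 100 changed 4-fold were called, and for the 16302 genes of the tumor comparison 9% and 64%. Only these genes were changed in each simulation, whereas 29.3% of all genes were called in the tumor comparison itself. The simulated shares therefore do not measure how many changed genes that comparison found. Gene positions are from GENCODE and promoters from RefSeq on GRCm38.p6.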

Additional observations from a re-analysis of the deposited data

Results flagged for a closer look

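For 3 of the 34 genes, beside 4.67% of all genes, the MPA+E effect in progenitor-like fibroblasts differed from its mean in the other 4 states. The difference itself was tested in edgeR with 2 libraries per group, and not with coarser clusters. The difference on the log2 scale was 0.47 for Hspa5 (adjusted p = 0.0113), 0.35 for Dnajb11 (adjusted p = 0.0388) and -0.49 for Fkbp14 (adjusted p = 0.0323). When each hormone library was left out in turn, the adjusted p ranged from 0.0117 to 0.24 for Hspa5, from 0.0498 to 0.472 for Dnajb11 and from 0.0391 to 0.325 for Fkbp14. No group had enough libraries for a test of single libraries that stand apart.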

How the results depend on the processing

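In the hormone comparison DESeq2 called 1 of the 34 genes (beside 8.68% of all genes), and each other alternative without a block called 0. In hyperplasia against normal DESeq2 called 14 (1 higher and 13 lower, beside 24.6% of all genes called), and leaving out 1 library gave 0 to 19 (0.00586% to 28.4%). In tumor against hyperplasia DESeq2 called 26 (21 higher and 5 lower, beside 34.8%), gaining Hspa5, Hsp90b1, Manf, Pdia3, Sec24d and Sec31a, leaving out 1 library gave 0 to 26 (1.43% to 41.9%), and the 4 raGFP-Wnt1 libraries without a block gave 11 (19.9%). Without the filter on low counts the hormone test called 2 of the 34 genes in adipogenesis-regulatory-like (beside 6.01% of all genes), 6 in ECM remodelling-like (9.14%) and 1 in lobular-like fibroblasts (4.39%). Leaving out 1 library gave 0 to 3 in ECM remodelling-like fibroblasts (beside 1.07% to 8.52% of all genes), 0 to 5 for the difference between states (0.473% to 5.89%), and, for the tumor, 0 to 21 in ECM remodelling-like (0.0735% to 34.3%) and 0 to 13 in progenitor-like fibroblasts (0% to 15.1%). With coarser clusters the hormone test called 0 of the 34 genes in each of the 5 states, ECM remodelling-like fibroblasts included, beside 0.712% to 3.02% of all genes. A lone library in a group was assumed to vary like the others. For stages, TMM scaling gave 1 gene for puberty against adult, higher (beside 2.9% of all genes higher and 2.89% lower), and 3 for involution against lactation, all lower (6.2% and 2.4%); a ratio of 2 gave 0 for pregnancy against adult (beside 0.964% of all genes higher and 0.238% lower), 3 for lactation against pregnancy, all higher (5.34% and 2.53%), and 1 for involution against lactation, lower (2.07% and 0.964%); without the barcodes with the most UMIs 0 remained for pregnancy against adult (2.19% and 1.94%).

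The hormone replicates share only a number. Deviations of same-numbered libraries correlated by 0.396 over 15642 genes, and with the replicate block 2 of the 34 genes were called over all fibroblasts, both higher (beside 15.7% of all genes called), 4 in adipogenesis-regulatory-like (14.7%), 8 in ECM remodelling-like (15.5%), 1 in lobular-like (6.24%) and 2 in progenitor-like fibroblasts (14.8%). With the mouse block 12 were called in ECM remodelling-like fibroblasts for the tumor, beside 13% of all genes. Over all fibroblasts 22 rose and 5 fell in the 6 libraries, beside 20.1% and 17.6%. The planned block was fitted to the 4 raGFP-Wnt1 libraries alone, where 15 rose and 4 fell, beside 16.6% and 13.6% of all genes. The calls of Serpinh1 and Sec61a1, also lost in these 4 libraries without the block, were lost, and that of Manf was gained. Neither block turned the fold of a named gene.

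Directions turned only in folds that had not passed. Leaving out 1 hormone library at a time, the fold ranged from -0.19 (without MPA+E replicate 1) to 0.021 (without MPA+E replicate 2) for Hspa5, from -0.17 (without MPA+E replicate 2) to 0.00999 (without placebo replicate 2; 0.0073 without MPA+E replicate 1) for Xbp1, from -0.31 (without MPA+E replicate 2) to 0.14 (without MPA+E replicate 1; 0.066 without placebo replicate 2) for Atf4, and from -0.18 (without MPA+E replicate 2; -0.16 without placebo replicate 1) to 0.32 (without placebo replicate 2) for Ddit3. In hyperplasia the fold of Ddit3 ranged from -0.050 (without the adult library; -0.038 without hyperplasia replicate 1) to 0.43 (without the puberty library). Among named genes, 39 of 169 alternatives ended a call in hyperplasia and 80 of 352 in tumor. These totals also count alternatives of named genes that had not passed and had no call to end. The share of calls that ended was therefore larger. The cause was not tested.

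Over all genes, the hormone test called 678, DESeq2 1358, the replicate block 2451, and leaving out 1 library 22 to 900. The hyperplasia test called 2280, DESeq2 4017, and leaving out 1 library 1 to 4810; the tumor test called 4777 and leaving out 1 library 242 to 7120. In adipogenesis-regulatory-like fibroblasts 414 genes were called, 1102 without the filter, 1711 with the block and 44 to 318 without 1 library; in ECM remodelling-like 609, 1671, 1817 and 129 to 1026; in lobular-like 198, 774, 692 and 7 to 691; in progenitor-like 334, 1495, 1879 and 0 to 1761. In preadipocyte-like fibroblasts 0 were called, with 1440 at an unadjusted p under 0.05, 2 with the block and 0 to 156 without 1 library. The difference between states gave 622, and 65 to 810 without 1 library. The tumor test gave 24 in ECM remodelling-like fibroblasts, 1571 with the block and 9 to 4450 without 1 library, and 0 in progenitor-like fibroblasts by limma-voom, with 0 to 1966 without 1 library.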
